A study of Triticum aestivum with 78 samples.

Results

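GA20ox1d, also called wga20 or Ta20ox1D, is a gibberellin 20-oxidase gene of hexaploid bread wheat (Triticum aestivum). It was chosen by name and is 1 of 771 genes that the array annotation names. The annotation gives it 2 of the 61115 probe sets tested, whose names end in S1_at and S1_x_at, and the S1_at probe set is the measure used unless the second is named. Transcript levels were measured in developing seed collected 5 days after anthesis from field-grown plants. The 78 Affymetrix wheat arrays came from 39 lines bred from a cross of RL4452 and AC Domain for genetic mapping. Every line had 2 biological replicates, each on 1 array. No line received a treatment, no array of either parent was analysed here, and the alleles that a line carries are not given in the sources used here. Poly(A) RNA came from whole seed that filled a tube, so the array cannot tell fewer cells of a type from less RNA per cell. The labels call the replicates biological without saying which plants or plots gave them.

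Gibberellins are plant hormones that promote stem growth, germination and the growth of fruit and seed tissues. Gibberellin 20-oxidase is a soluble dioxygenase that carries out successive oxidations late in the pathway and makes the direct precursors of the active hormones. Its genes are often regulated by feedback from active gibberellin, and bread wheat carries related copies on its A, B and D genomes. The array holds 1 probe set for GA20ox1a and 1 for GA20ox1b. No sequence of the gene, its promoter or its probes was used.

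Values are log2 of the deposited RMA intensity, on which 1 unit is a doubling. GA20ox1d lay above background on every array, and 1 array, of line H8, stood well above the range of the others. Over the 78 arrays the lowest value was 5.18, the median 6.08 and the highest 7.99, with a mean of 6.09 ± 0.34 (SD, n = 78). As intensities these were 36.4, 67.8 and 255. The lowest array was G30 replicate 2 and the highest H8 replicate 2. Without both arrays of H8, the lowest was 5.18, the median 6.07 and the highest 6.67, in A40 replicate 2, with a mean of 6.06 ± 0.27 (SD, n = 76). H8 replicate 2 therefore lay above every one of these 76 arrays, while H8 replicate 1, at 6.11, lay among them. GA20ox1d was brighter than every one of the 17 tag control probe sets on 78 of the 78 arrays. Tag controls match no wheat transcript and give a measure of background.

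**Figure D1:**
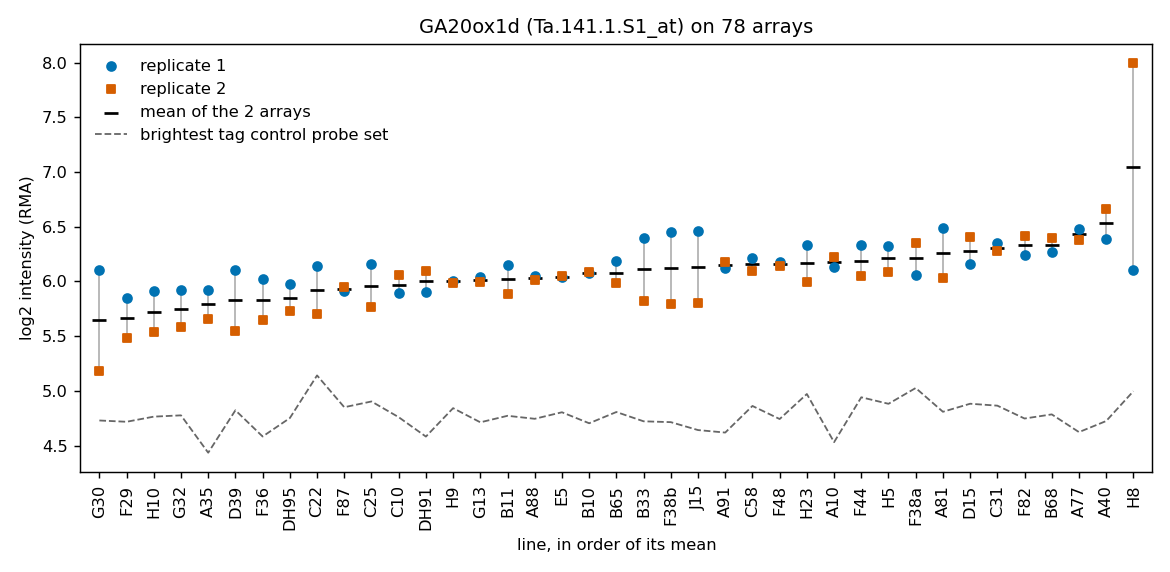
Log2 intensity of GA20ox1d on the 2 arrays of each of 39 lines, in order of the line mean. Circles are replicate 1, squares replicate 2, dashes the mean of the 2 arrays and grey bars join them, while the broken line marks the brightest tag control probe set of the line. Every array lies above the tag controls, and H8 replicate 2, at 7.99, stands above all others.

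The 2 probe sets of GA20ox1d moved together, whereas the probe sets of its homeologues lay near the tag controls. The S1_x_at probe set had a lowest value of 4.92 in H10 replicate 2, a median of 5.54 and a highest of 7.03, again in H8 replicate 2. Its next highest array, A81 replicate 1, had 6.22. The suffix x marks a probe set with some probes that can match other transcripts. GA20ox1a ran from 3.72 to 4.67 with a median of 4.02, and GA20ox1b from 3.04 to 3.75 with a median of 3.36. Neither exceeded all 17 tag controls on any array, at 0 of 78 for both, so their differences hold for intensities near background. On H8 replicate 2, GA20ox1d was 1.93 above the mean of the 76 arrays without H8 (3.81-fold) and its second probe set 1.49 above (2.82-fold). The same array gave differences of 0.088 for GA20ox1a and 0.22 for GA20ox1b.

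Across arrays, Pearson's r between the 2 GA20ox1d probe sets was 0.81 over 78 arrays and 0.71 over the 76 arrays without H8. It was 0.63 over 38 replicate 1 arrays, 0.72 over 38 replicate 2 arrays and 0.75 over 38 line means. The 2 sets may share probes, which was not tested. With GA20ox1a, GA20ox1d had r of 0.16 both with and without H8. With GA20ox1b it had 0.28 with H8 and 0.20 without, and the sign was not the same in replicate 1 (−0.27) and replicate 2 (0.41). These coefficients describe arrays that share lines, scan days and labelling, and no p is given for them.

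**Figure D2:**
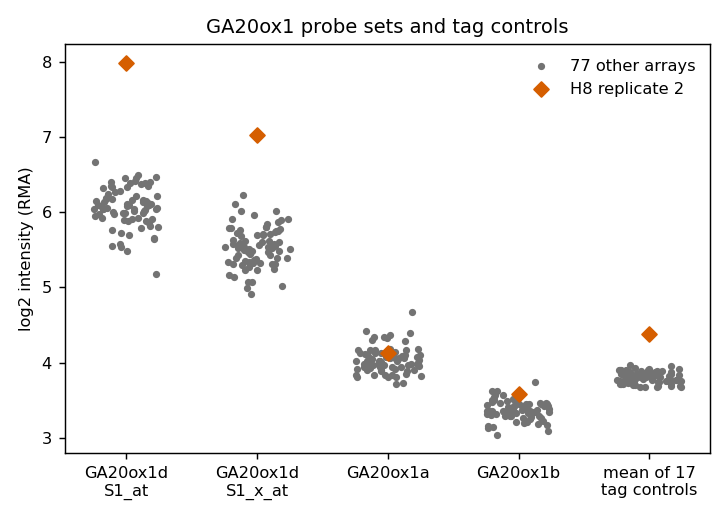
Log2 intensity of the 2 GA20ox1d probe sets, of GA20ox1a and of GA20ox1b, and the mean of 17 tag control probe sets, with 1 point per array. Grey points are the 77 arrays other than H8 replicate 2 and the diamond is H8 replicate 2. That array is the highest for both GA20ox1d probe sets and for the tag mean, and lies within the other arrays for GA20ox1a and GA20ox1b. Levels of different probe sets are not to be compared with each other.

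The lines formed a graded order with H8 alone at its top. G30 had the lowest mean, 5.65, with 6.11 in replicate 1 and 5.18 in replicate 2. F29 followed at 5.67 (5.85 and 5.49), then H10 at 5.72 (5.91 and 5.54), G32 at 5.75 (5.92 and 5.58) and A35 at 5.79 (5.92 and 5.66). All 5 of these lines were lower in replicate 2 than in replicate 1, as were 26 of the 39 lines in all. D39 and F36 had means of 5.83, DH95 5.85, C22 5.92, F87 5.93, C25 5.96 and C10 5.97. DH91 and H9 had 6.0, G13 6.01, B11 6.02, A88 6.03, E5 6.04, and B10 and B65 6.08. The replicates of H9, G13, A88, E5 and B10 lay close together, as in E5 with 6.04 and 6.05. Higher in the order came B33 at 6.11, F38b at 6.12, J15 at 6.13, A91 at 6.15, C58 and F48 at 6.16, H23 at 6.17, A10 at 6.18 and F44 at 6.19. H5 and F38a had 6.21, A81 6.26, D15 6.28, C31 6.31, and F82 and B68 6.33. The highest means below H8 were those of A77 at 6.43 (6.48 and 6.38) and A40 at 6.53 (6.39 and 6.67). H8 had a mean of 7.05, from 6.11 and 7.99.

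Neighbours in this order below H8 could not be told apart. The residual SD between replicates was 0.31 with H8 and 0.23 without it, which gives a line mean an SE of 0.22 or 0.17. These values include any shift between replicate 1 and replicate 2. The gap from A40 to H8 was 0.52, and it was the only 1 of the gaps between neighbours that exceeded the residual SD. Without H8, the largest gap was 0.10, and 0 gaps exceeded the residual SD. The 38 lines spanned 1.84-fold in intensity, and the SD of their means was 0.21. F38a and F38b, whose names differ by a letter, had 6.06 and 6.35 against 6.45 and 5.79, so their arrays overlapped.

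The design asks whether the lines differ in transcript level. For GA20ox1d the limma moderated F over 39 lines gave an adjusted p of 0.514 (F = 1.41), and over 38 lines without H8 an adjusted p of 0.381 (F = 1.58). Without H8 replicate 1, which leaves H8 replicate 2 as the only array of its line, it was 0.00203, in a fit that called 17.6% of all probe sets. A genotype effect was called at 6.69% of all probe sets over the 78 arrays and at 6.82% over the 76, and GA20ox1d was in neither of these sets. The adjusted p without H8 was 0.851 for the second probe set and 0.952 for GA20ox1b. A p above the threshold does not show that the lines were alike, since each had 2 arrays. The intraclass correlation, the share of variance that lies between lines, was 0.14 with H8 and 0.21 without. Without H8 the median over the 30558 probe sets at or above the median level was 0.079, and 69.4% of them had a lower value than GA20ox1d. The second GA20ox1d probe set had 0.011.

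H8 was the only 1 of 39 lines whose GA20ox1d mean was called apart from the mean of the other lines, with limma's adjusted p of 0.00105. That fit called 17.1% of all probe sets higher in H8. The call rested on 1 array, since without H8 replicate 2 the difference was 0.042 ± 0.24 (SE) with an adjusted p of 1, and only 0.0802% of probe sets were called higher. Other values set H8 replicate 2 apart. It was the highest of the 78 arrays at 21.7% of probe sets and the lowest at 18.9%, where an even share is 1.28%, and the next array was highest at 4.52%. Its 17 tag controls averaged 4.38, and 12 of the 17 were at their highest there. Among 3483 probe sets with a mean within 0.25 of that of GA20ox1d, the median change on that array was −0.18, and 1.32% rose by as much as GA20ox1d. GA20ox1d was 2.47 above the 76 arrays after quantile normalization and 1.79 above after median centring. H8 replicate 1 was washed with another protocol than the other arrays that have one recorded, per the instrument records. The part of these array features in the GA20ox1d value was not tested. For line A40, the highest without H8, the difference from the other lines was 0.45 with an adjusted p of 0.958 in a fit that called 0.0605% of probe sets in either direction, and without H8 it was 0.48 with an adjusted p of 0.429.

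Replicates agreed weakly on the order of the lines. Over 39 lines, Pearson's r between replicate 1 and replicate 2 was 0.24 (two-sided permutation p = 0.145) and Spearman's rho was 0.37 (permutation p = 0.0221). Without H8, r was 0.39 (permutation p = 0.0151) and rho was 0.39 (permutation p = 0.0153). Adjusted over the 16 correlations computed for the 4 gibberellin 20-oxidase probe sets, the permutation p was 0.118 for both values without H8, and 0.58 for r and 0.118 for rho with it. Leaving out A77 and A81, the 2 lines farthest from the median in replicate 1, gave an r of 0.22 with H8 (permutation p = 0.192) and 0.36 without (permutation p = 0.0313). With each array's scan-day mean taken off, r was 0.16 with H8 (permutation p = 0.311) and 0.36 without (permutation p = 0.0277), and rho was 0.25 (permutation p = 0.125) and 0.31 (permutation p = 0.0634). The r without H8 was 0.11 for the second GA20ox1d probe set, −0.13 for GA20ox1a and 0.017 for GA20ox1b. Over the 30558 probe sets at or above the median level, the same r had a median of 0.17, and 84% lay below that of GA20ox1d.

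**Figure D3:**
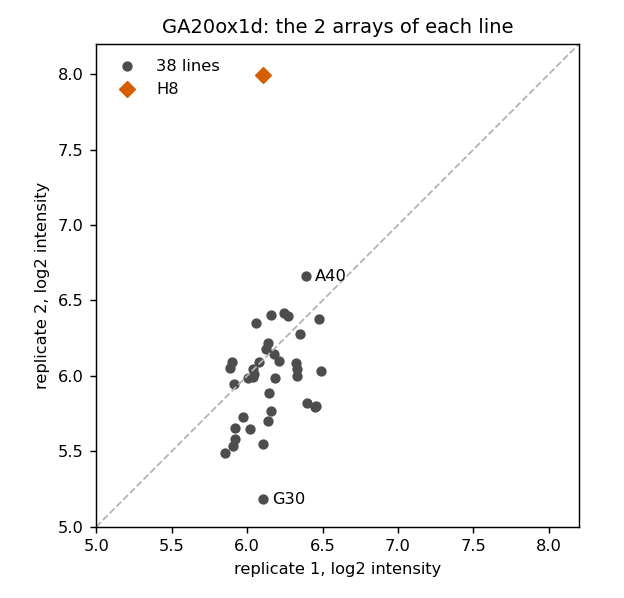
GA20ox1d in replicate 2 (vertical axis) against replicate 1 (horizontal axis), both in log2 intensity, with 1 point per line. The broken line marks equal values. The 38 lines scatter along it with r of 0.39, with A40 and G30 at the ends of the replicate 2 range, and H8 lies apart at 6.11 and 7.99.

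The spread of GA20ox1d was wider in replicate 2 than in replicate 1. Over the 39 replicate 1 arrays the lowest value was 5.85, in F29, the median 6.14 and the highest 6.49, in A81, with an SD of 0.18. Over the 38 replicate 2 arrays without H8, the lowest was 5.18, the median 6.0 and the highest 6.67, with an SD of 0.31. The replicate 2 SD was 1.67 times that of replicate 1 over the 38 lines without H8. That ratio had a median of 1.02 over the 30558 probe sets, and 99.6% of them had a smaller one than GA20ox1d. For the second GA20ox1d probe set the ratio was 1.22. Replicate 2 without H8 reached both lower and higher than replicate 1, at 5.18 to 6.67 against 5.85 to 6.49, and its median was lower. In 13 of 38 lines the replicate 2 value was below 5.85, the lowest of all replicate 1 values. That count reflects the lower median as well as the wider spread. The 5 lowest were those of G30, F29, H10, D39 and G32, at 5.18 to 5.58.

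Replicate 2 was lower than replicate 1 in 26 of 39 lines. With line as a block, limma gave a difference of −0.12 ± 0.068 (SE) with an adjusted p of 0.173 over 78 arrays, and −0.18 ± 0.046 (SE) with an adjusted p of 0.00265 over the 76 arrays without H8. The second GA20ox1d probe set gave −0.17 without H8 with an adjusted p of 0.0133. These calls stand against a large background, since 13.2% of probe sets were lower in replicate 2 with H8 and 18.9% without. For GA20ox1a and GA20ox1b the differences without H8 were 0.034 and −0.033, with adjusted p of 0.535 and 0.401. Replicate number coincided with a project name on the instrument records and nearly with scan day. The only 1 scan day with both replicate numbers held 6 replicate 1 arrays with 5.97 to 6.39 and 1 replicate 2 array with 6.09, which lay inside that range. With scan day as a term the difference was 0.068 with an adjusted p of 1. Outside that 1 day, scan day and replicate number cannot be told apart.

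GA20ox1d also moved with measures that describe an array as a whole. The first principal component of the 30558 probe sets, computed over all 78 arrays, held 18.7% of their variance. Its sign was set to run with GA20ox1d, so a positive r was set by that choice. Over the 76 arrays without H8, GA20ox1d had an r of 0.59 with it. The 5th and 95th percentiles of these probe sets were −0.72 and 0.69. All values of GA20ox1d that follow are over the 76 arrays unless stated. The difference between the 3′ and 5′ control probe sets of a transcript is a measure of RNA integrity and of how far copying went. The r of GA20ox1d with it was −0.45 for Sucsyn, −0.48 for CYP86-TA, −0.38 for G-6-PDH and −0.51 for Ubiquitin. A negative r means that GA20ox1d was higher where the 3′ excess was smaller. In each replicate set alone the Ubiquitin value was −0.33 in replicate 1 and −0.54 in replicate 2. Between 9.04% and 17.8% of probe sets had a lower r with these 4 differences than GA20ox1d. With the tag mean, r was 0.47 over 78 arrays and 0.078 without H8. The part of these measures in the spread of GA20ox1d over lines was not tested.

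Among other genes of the gibberellin pathway and its targets, the annotation named few. The list of symbols for synthesis, breakdown, reception and response held 5 probe sets of 4 genes. They were the 2 of GA20ox1d, those of GA20ox1a and GA20ox1b, and Ta.3.1.S1_at. The last was matched by its synonym amy1 but is BMY1, a beta-amylase gene, and not one of the alpha-amylases that gibberellin induces in germinating grain. BMY1 had a mean level of 12.67 and an r of 0.20 with GA20ox1d without H8. It was the only 1 of the 5 with a genotype effect (limma adjusted p = 0.0212). The list of other hormone genes had 0 members.

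Among the lists of tissue and cell division markers, the green tissue mean had the highest r with GA20ox1d in replicate 2, but its members differed. The starchy endosperm list had 23 probe sets, 10 of them at or above the median level, and those 10 had r of −0.16 to 0.35 with GA20ox1d without H8. The mean of the endosperm list had r of −0.00825 with it. The mean of the green tissue list, which marks the chloroplast-bearing cells of the pericarp, had r of 0.45 without H8 and 0.22 with it. Without H8 it was 0.11 in replicate 1 and 0.56 in replicate 2. The 10 green tissue probe sets at or above the median level had r of −0.23 to 0.48 without H8. The anther and pollen list mean had 0.20 without H8, but a synonym brought in a gliadin probe set, gli-2, which the endosperm list also holds. Without gli-2, the mean of the remaining 3 probe sets above the median level, 2 of PRO1 and 1 of raftin1b, had 0.46. In replicate 2 that mean had 0.43. Singly, over the 76 arrays, the PRO1 probe sets had 0.45 and 0.012 and that of raftin1b 0.27. The cell division list mean had 0.25 without H8, and 0.36 in replicate 2. The embryo and late seed list had 6 probe sets, all with mean levels of 5.02 or less. The lists of green tissue and cell division held 34 and 28 probe sets, and 0 of those at or above the median level had r of 0.5 or more without H8. Their part in the GA20ox1d values was not tested.

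Transcripts that followed GA20ox1d were sought among the other 30557 probe sets at or above the median level of 5.07. Over 78 arrays, 78 of them had an r of 0.7 or more (0.255%) and 57 an r of −0.7 or less (0.187%). Each of the 78 was at its highest on H8 replicate 2, and each of the 57 at its lowest there. Without H8, 1 probe set reached 0.7 (0.00327%), which was the second probe set of GA20ox1d itself, and 0 reached −0.7. Of the 78, 56 had r of at least 0.5 without H8, with a median of 0.52 over all 78, where 2.48% of all the probe sets compared reached 0.5. Of the 57, 47 had r of −0.5 or less, with a median of −0.56, where 3.23% of all reached −0.5. The 78 and the 57 were chosen on arrays that include these 76, which fixes much of this excess. Of the 10 closest followers, 2 were shared between the orders with and without H8.

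**Figure D4:**
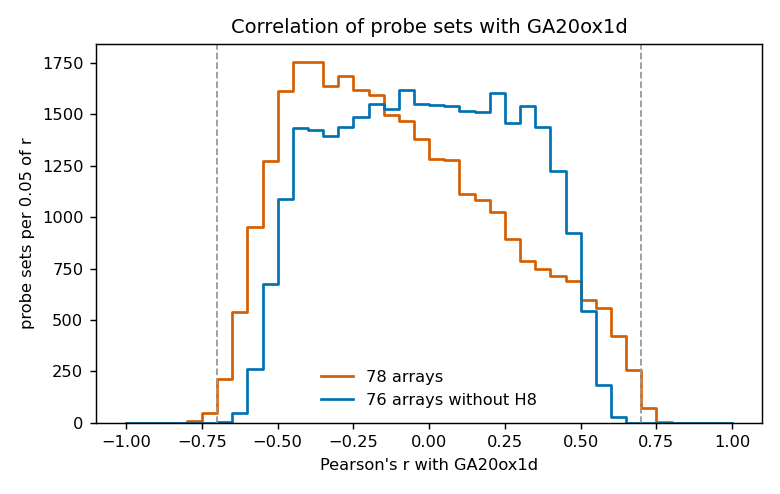
Number of probe sets in each 0.05 step of Pearson's r with GA20ox1d (horizontal axis), for the 30557 other probe sets at or above the median level, over 78 arrays and over the 76 arrays without H8. Broken lines mark 0.7 and −0.7. With H8 78 and 57 probe sets pass the lines, and without it 1 and 0.

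The closest followers other than GA20ox1d itself had no gene name. TaAffx.12375.1.S1_at was in the top 10 both ways, with r of 0.78 over 78 arrays and 0.63 without H8. It ran from 4.51 to 5.81 on the 76 arrays and reached 6.91 on H8 replicate 2. TaAffx.84777.1.S1_at (0.77 with H8, 0.57 without), Ta.10197.1.S1_at (0.76 and 0.57), TaAffx.2017.1.S1_at (0.76 and 0.59) and TaAffx.87130.1.S1_x_at (0.75 and 0.56) came next. All of these were higher on H8 replicate 2 than on any other array. Without H8 the leaders were Ta.14769.1.A1_x_at with r of 0.66, Ta.6902.3.S1_a_at with 0.65, TaAffx.106261.1.S1_at with 0.65 and Ta.28494.1.S1_s_at with 0.64. Ta.14769.1.A1_x_at had 0.60 in replicate 1, 0.65 in replicate 2 and 0.63 over line means. The others were closer in replicate 2 than in replicate 1, with 0.68 against 0.38 for Ta.6902.3.S1_a_at, 0.66 against 0.51 for TaAffx.106261.1.S1_at and 0.72 against 0.37 for Ta.28494.1.S1_s_at. Ta.807.2.S1_at had r of 0.62 without H8 and 0.10 with it, as its level on H8 replicate 2, 9.41, was below the 9.91 to 11.22 of the other lines.

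At the other end, Ta.22269.1.A1_a_at had the lowest r without H8, −0.67, and −0.76 with it. Ta.2740.1.S1_at was among the lowest 5 both ways, at −0.77 with H8 and −0.64 without. It ran from 8.13 to 9.20 on the 76 arrays and fell to 7.25 on H8 replicate 2. Ta.27783.1.S1_at went from −0.77 to −0.56 without H8, and its level on that array was 4.99 against 7.49 to 8.53. These probe sets have no annotated gene either.

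Followers chosen in 1 replicate set were measured again in the other, without H8. The second GA20ox1d probe set was left out of these choices. The 20 with the highest r on replicate 1 arrays had 0.56 to 0.65 there and 0.12 to 0.65 on replicate 2 arrays, with a median of 0.45. All 20 were above 0, and 7 of them reached 0.47, the 95th percentile of all probe sets there. The 20 with the highest r on replicate 2 arrays had 0.67 to 0.74 there and 0.012 to 0.47 on replicate 1 arrays, with a median of 0.34, and 7 of them reached the 95th percentile there, 0.37. The 20 lowest on replicate 1 arrays went from −0.61 to −0.54 to a range of −0.66 to 0.0419, and the 20 lowest on replicate 2 arrays from −0.80 to −0.71 to a range of −0.41 to −0.10. Of these, 3 and 4 were at or below the 5th percentile of all probe sets. Replicates of a line share its genotype, and both sets hold the array-wide component.

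Among followers with a gene name other than a locus number, 6-FEH came first after GA20ox1d itself. 6-FEH is a fructan exohydrolase gene, and its product breaks down the fructans that wheat tissues store as reserve carbohydrate. The probe set TaAffx.93410.1.S1_at had r of 0.59 without H8 and 0.65 with it. On the 76 arrays it ran from 5.80 to 7.61 with a median of 6.76, and it had 8.11 on H8 replicate 2. Its r was 0.45 in replicate 1 and 0.61 in replicate 2. The other probe sets of the gene followed less closely, Ta.30950.1.A1_x_at with 0.41 and Ta.9641.1.A1_a_at with 0.18 without H8. These 2 had a genotype effect in limma (adjusted p = 3.6e-05 and 0.00691), and TaAffx.93410.1.S1_at did not reach the threshold (0.512). The 3 probe sets of 6-FEH thus disagree, and the r of the first cannot be given to the gene as a whole.

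**Figure D5:**
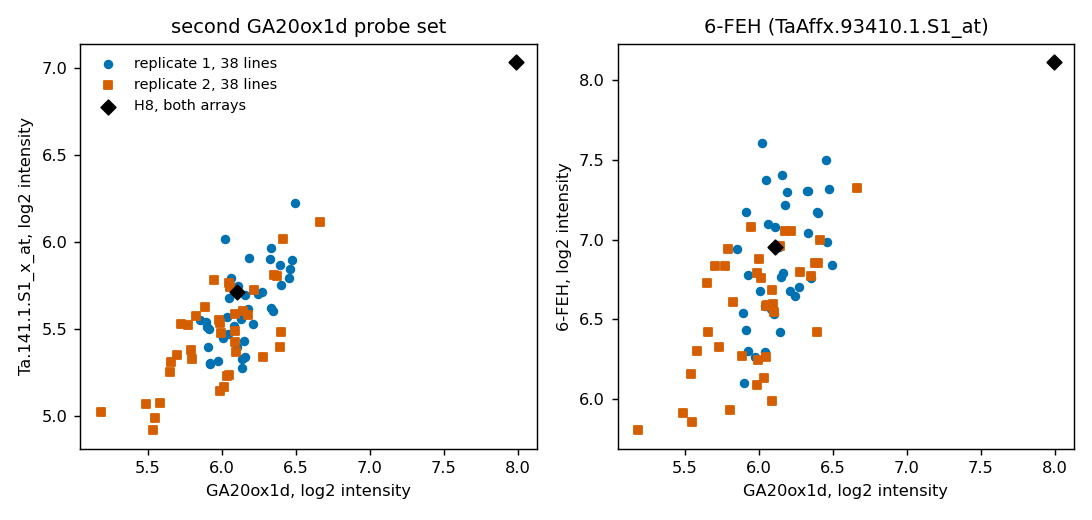
Left, the second GA20ox1d probe set and right, 6-FEH (TaAffx.93410.1.S1_at), both in log2 intensity, against GA20ox1d in log2 intensity, with 1 point per array. Circles are replicate 1 and squares replicate 2 of 38 lines, and diamonds the 2 arrays of H8. Without H8, r is 0.71 on the left and 0.59 on the right, and H8 replicate 2 lies at the upper right of both.

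The other symbols among the 5 closest over 78 arrays and without H8 were locus numbers. Without H8 they were LOC100037651 (Ta.30200.1.A1_at, r = 0.61), LOC542943 (Ta.24961.2.S1_x_at, 0.57) and LOC543360 (TaAffx.143995.11.A1_at, 0.56). Over 78 arrays they were LOC780581 (TaAffx.128055.1.S1_at, 0.68), LOC543360 (2 probe sets, both 0.67) and LOC543039 (Ta.30655.1.A1_at, 0.67), which had 0.41 to 0.56 without H8. Genes with a name further down the order were taken after their values were seen. NCBP, a cap-binding protein gene, had 0.55 without H8 and 0.26 with it. The xylanase inhibitor gene xip had 0.48 and 0.47 in its 2 probe sets without H8, and 0.24 and 0.20 with it. PsbO of the oxygen-evolving complex had 0.48 without H8 and 0.10 with it, and the histone gene wcH2B-6 had 0.46 and 0.40 in its 2 probe sets without H8. In other genes the probe sets disagreed. LTP3, which encodes a lipid transfer protein, had 0.50 without H8 in Ta.1282.1.S1_x_at and −0.12 in Ta.1282.4.S1_at. PsbP had 0.47 in TaAffx.120874.1.S1_x_at and 0.27 in Ta.85.1.S1_at, and with H8 these had 0.27 and 0.0065. The profilin gene PRO1, which encodes an actin-binding protein, had 0.45 in Ta.5057.1.S1_x_at and 0.012 in Ta.5057.3.A1_at. UBC1, a ubiquitin-conjugating enzyme gene, had 0.52 with H8 and 0.15 without in TaAffx.53697.1.S1_x_at, and its other probe sets had −0.13 and −0.095 with H8. The first reached 8.02 on H8 replicate 2 against at most 6.16 on the 76 arrays.

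Named genes that ran against GA20ox1d had weaker coefficients. The histone gene H2A-3 had −0.48 without H8 and −0.57 with it in Ta.27192.1.S1_s_at, but −0.016 and −0.18 in its other probe set, Ta.27192.1.S1_at. Without H8, TaTPC1, a calcium channel gene, had −0.44 and AdSS, an enzyme of purine synthesis, −0.39. FKBP70, an immunophilin, had −0.38 and the translation initiation factor gene Eif4B −0.36, also without H8. With the first principal component taken out of every probe set, r over the 78 arrays was 0.65 for the second GA20ox1d probe set, 0.61 for TaAffx.12375.1.S1_at, 0.43 for Ta.14769.1.A1_x_at, 0.20 for TaAffx.106261.1.S1_at, 0.0937 for Ta.6902.3.S1_a_at, −0.00575 for Ta.28494.1.S1_s_at and 0.28 for 6-FEH (TaAffx.93410.1.S1_at). It was −0.10 for LTP3 (Ta.1282.1.S1_x_at), −0.13 for NCBP and −0.27 for PRO1 (Ta.5057.1.S1_x_at), so the sign turned for these 3 probe sets. H8 replicate 2 is among these arrays, and no such r was computed without it. The 10 closest followers over 78 arrays kept 0.52 to 0.65. Those among the 10 closest only without H8 had −0.20 to 0.43. UBC1 (TaAffx.53697.1.S1_x_at), at 0.15 without H8, had 0.33. These coefficients describe 78 or 76 arrays that share lines, scan days and array-wide differences, and say nothing of shared function or control.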

How the data were processed

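The authors made the deposited intensity values with RMA, per the submitters' processing notes, whose version is not given in the sources used here. RMA subtracts background, normalizes arrays to a common distribution and summarizes each probe set. Deposited values were linear (5.04 to 27696), where log2 values had been assumed, so log2 was taken with no constant added. Of 61290 probe sets, 111 control and 64 reporter sets were left out and 61115 were tested. Array medians ran from 32.1 to 36.4, and the number of arrays limits the precision. Gene names came from the annotation of the array (1273 probe sets with 1 symbol, 0 with several, 59842 with none) and the Chinese Spring RefSeq v2.1 gene names, where 1272 matched.

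R 4.3.3 read the values through version 1.17.8 of data.table, and limma 3.58.1 was fitted over all probe sets, with 2 replicates for each of 39 lines, adjusted by Benjamini-Hochberg at 0.05. The tests were the moderated F over lines, each line against the mean of the others, and replicate 2 against 1 in a fit that held a term for each line. Permutations (100000) tested how far replicates agreed. Followers were ranked by Pearson's r, and the text names the 10 highest, the 5 lowest and the 5 highest with a symbol in part, with and without H8. Marker and pathway lists were of symbols. Other steps used pandas 2.3.3, scipy 1.17.1, matplotlib 3.10.9 and numpy 2.4.6 under Python 3.11.15, and the fits were tested on simulated data. The gene, its lists and rules were chosen with earlier results of these data known. Arrays were read over 15 scan days, of which 1 held both replicate numbers and 3 held 1 array. The wash records of H8 replicate 1 (another protocol), B68 replicate 2 (aborted) and D15 replicate 2 (none kept) differed from the rest. Alternatives were other scalings, filters, scan day, array weights and leaving out arrays. Raw probe intensities and probe sequences were not analysed here.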

Additional observations from a re-analysis of the deposited data

How the results depend on the processing

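The adjusted p of the GA20ox1d genotype effect (0.514) stayed above 0.05 under all alternatives run except 1 of those leaving out an array. It ran from 0.00203, without H8 replicate 1, where 10729 probe sets were called against 4088, to 0.638, without A40 replicate 2. H8 replicate 2 is then the lone array of its line and is assumed to vary like the others. With a replicate block it was 0.343, and 5622 were called. Differences between replicates correlated between 741 pairs of lines at −0.57 to 0.69, with 422 above 0.1 and the rest not. Their median was 0.14, which does not settle whether the numbers pair the arrays. The main fits over lines held no term for the numbers, by choice. Any shift between replicate numbers thus stayed in the residual, and a replicate block without H8 was not run. The count of lines called apart, 1, was 0 without H8 and 0 to 1 when leaving out an array (0 without H8 replicate 2). The replicate difference (−0.12, not called) was −0.18 without H8 (adjusted p = 0.00265) and −0.15 with array weights (0.0108). It ran from −0.18 to −0.10 when leaving out an array, was −0.12 with no replicate block, and turned to 0.068 with scan day as a term, as did that of the second probe set, to 0.11. Replicate agreement (r = 0.24) was 0.39 without H8, and 0.20 (without A40 or F29) to 0.39 (without H8) when leaving out a line. It was 0.39 over the 36 lines of 1 wash protocol, which leave out H8 too, so this is not a separate check. The 78 followers at r of 0.7 or more became 1 without H8, 0 in replicate 1, 820 in replicate 2, 460 for deviations from line means, 0 by Spearman's rho, 259 with scan-day means taken off, 503 after quantile normalization, 27 after median centring, 166 with 16 added to the intensity, 155 over all probe sets, 0 with the first component taken out, and 1 to 152 when leaving out an array (1 without H8 replicate 2, 152 without F36 replicate 1, 149 without B68 replicate 2, 119 without C31 replicate 2). The 57 at −0.7 or less became 0, 0, 1340, 684, 0, 149, 103, 23, 61, 58, 0 and 0 to 132 in the same order (0 without H8 replicate 2, 132 without B68 replicate 2, 105 without F36 replicate 1). H8 is in all these counts but the first. Without it, replicate 2 arrays gave 8 and 32 and deviations 114 and 265. Wash-protocol lines, taking out the component, these last 4 counts and the anther list without gli-2 were chosen after seeing the data. The cause of these changes was not tested.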
